A study of Mus musculus with 12 samples.

Results

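Wt1 and the genes of 6 proteins reported to bind its product (Wtap, Wtip, Basp1, Pawr, Cited2 and Ciao1) were taken from a single-cell RNA sequencing series of fetal mouse gonads. The 7 genes were chosen by symbol, and all 7 of them were found among the 32285 genes listed in each library. The series holds 12 libraries of gonads collected at E12 (23 ± 3 tail somites), with 2 libraries in each of 6 groups: XX WT, XX -KTS KO, XX +KTS KO, XY WT, XY -KTS KO and XY +KTS KO. All mice were on a mixed B6CBAF1/JRj background. The -KTS KO and +KTS KO mice carry mutations at the donor splice site of intron 9 of Wt1, which remove 1 of the 2 splice variants described below in every cell that transcribes the gene. The study's text presents both lines as homozygous, while its methods also write the +KTS KO genotype as +KTS-/+. Each -KTS KO library pools the gonads of several embryos, whereas the other libraries hold both gonads of 1 embryo, so that pooling and the -KTS KO genotype cannot be told apart. The libraries labelled as replicates were the unit of every test (n = 2 per group).

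WT1 is a zinc-finger protein needed for formation of the gonad and kidney. Alternative use of a splice donor at the end of exon 9 adds or omits the residues lysine, threonine and serine (KTS) between the last zinc fingers, which gives the +KTS and -KTS variants. The -KTS form acts as a transcription factor, and the +KTS form binds RNA and is found with splicing factors. Several proteins were isolated through their binding to WT1. BASP1 is a membrane and nuclear protein that turns WT1 from an activator into a repressor, PAWR (also called PAR-4) is a pro-apoptotic repressor, and CIAO1 is a WD40 protein of the cytosolic iron-sulfur assembly machinery. CITED2 is a co-activator that recruits the acetyltransferases CBP and p300 and acts with WT1 in the early gonad. WTIP is a LIM-domain protein of cell junctions, and WTAP is the scaffold of the complex that writes N6-methyladenosine on mRNA.

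The bases that separate the variants are shown because the genotypes are defined by them. They lie at chr2:105170010-105170018 on the plus strand (GRCm38, GENCODE M21) and form the last 9 bases of exon 9 in the longer form, adding 3 codons. Each line gives 42 bases before and 30 bases after this position, from the annotated transcripts with and without them, and capitals mark the extra bases.
+KTS: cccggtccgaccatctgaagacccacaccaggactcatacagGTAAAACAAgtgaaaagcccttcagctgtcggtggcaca
-KTS: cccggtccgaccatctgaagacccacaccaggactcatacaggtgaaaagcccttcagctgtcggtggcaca
Exon 9 therefore ends at 105170018 in the +KTS transcript and at 105170009 in the -KTS transcript, and exon 10 begins at 105172223 in both. Of 9 annotated Wt1 transcripts, 5 carry the extra bases and 2 end exon 9 before them. The libraries were read from the 3′ end of the mRNA, within the last exon, which is 1390 and 1394 bases long in the 2 transcripts. The Wt1 counts given here therefore sum both variants, and they do not check the genotype labels.

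The other genes were located in the same annotation. Wt1 itself spans chr2:105126529-105173616 on the plus strand. Wtap lies at chr17:12966796-12994169 on the minus strand, Wtip at chr7:34109543-34133268 on the minus strand and Basp1 at chr15:25363277-25413764 on the minus strand. Pawr lies at chr10:108332121-108414240 on the plus strand, with a small gene (Gm23105) inside it on the same strand. Cited2 lies at chr10:17723218-17725674 on the plus strand, and Ciao1 at chr2:127240938-127247816 on the minus strand.

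Each library held between 108111924 and 147968666 unique molecular identifiers (UMIs, each the tag of 1 captured RNA molecule). After filtering, 76066 cells remained, of which 64709 were gonadal somatic cells, 7077 germ cells and 1603 endothelial cells by their markers. Xist and Ddx3y matched the labelled sex in all 12 libraries, and a pair of libraries shared at most 35 cell barcodes. In the gonadal somatic sums, 10 germ cell markers together reached 13.2 to 42.3 CPM and 8 endothelial markers 10.2 to 28.0 CPM. Gata4, Lhx9, Nr5a1 and Emx2 together reached 425 to 721 CPM. CPM are the UMIs of a gene, or of a list, scaled to the total of all genes in those cells. In the somatic, germ and endothelial sums per library, that total was first multiplied by the library's scaling factor from edgeR (TMM). UMIs pooled over libraries carry no such factor. Calls that changed without the factor are given in the closing section. Clusters 10, 55 and 58, which were led by connective tissue or muscle genes (Acta2 with Hoxc10, Actc1 with Myog, Crabp1 with Foxd1) and had low gonadal markers, were counted with the gonadal somatic cells. Some libraries stood apart. XY +KTS KO replicate 1 supplied 94.6% to 99.2% of the cells of 5 somatic clusters, 4 of them led in part by the immediate early genes Fos, Btg2 and Junb, and XY -KTS KO replicate 1 supplied 97.6% and 99.5% of 2 others. Calls made in comparisons with these libraries and lost without one of them are named beside the results or in the closing section.

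The level of each gene in gonadal somatic cells was summed per library, and the groups were compared with edgeR's quasi-likelihood test (Benjamini-Hochberg adjusted over 17726 genes, called at an adjusted p of at most 0.05). A sum over cells cannot tell a change in the level per cell from a change in the mix of cell types. With 2 libraries per group, a lack of overlap between groups was common among all genes tested, in either direction. Against WT it held for 64.2% (XX -KTS KO), 61.9% (XY -KTS KO), 54.3% (XX +KTS KO) and 52.3% (XY +KTS KO). Between the WT sexes it held for 58.6%. The plot of CPM by library shows the values described next for all 7 genes.

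**Figure D1:**
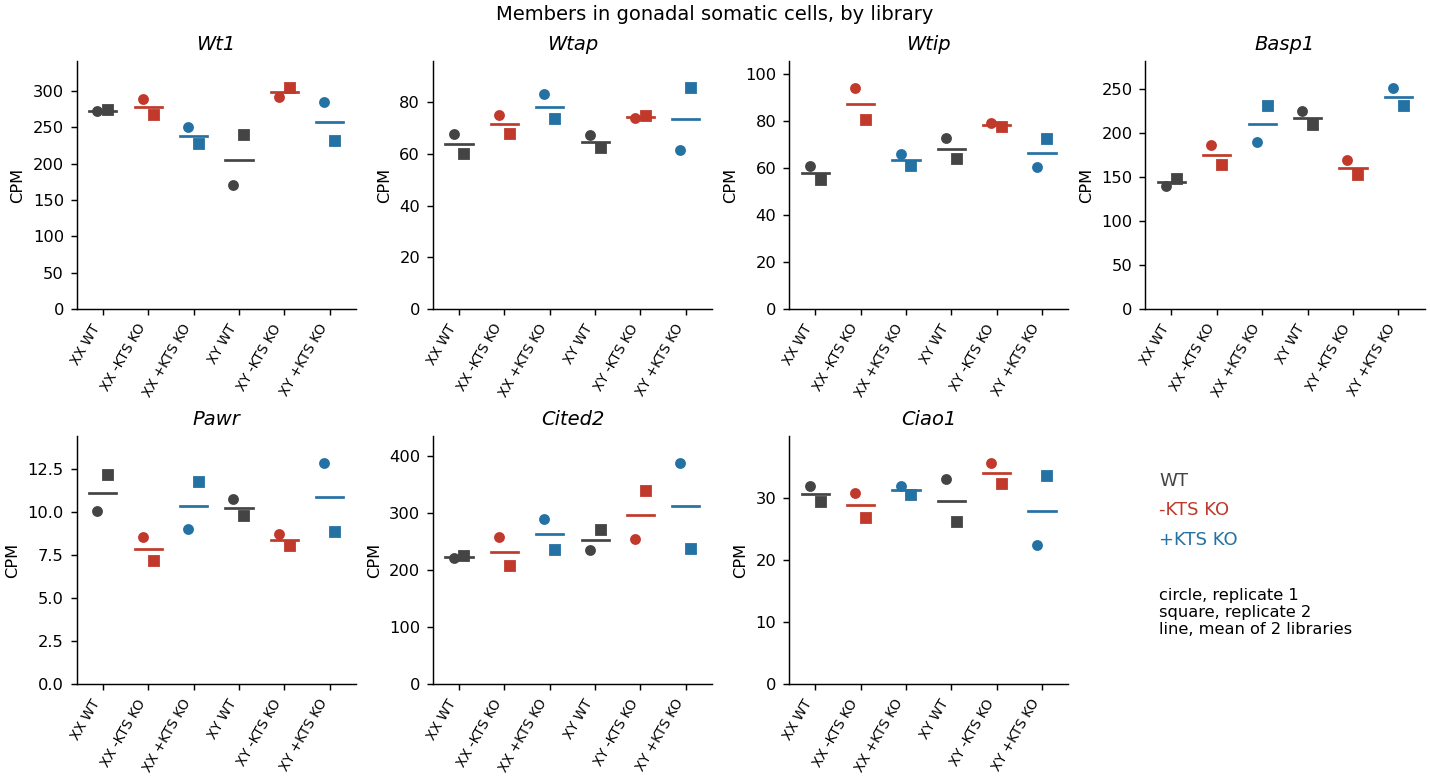
Level of each gene in gonadal somatic cells, in CPM, for each of the 12 libraries (circles, replicate 1, and squares, replicate 2), with the mean of both libraries as a line. Wt1 was lowest in XY WT replicate 1, Wtip was highest in both XX -KTS KO libraries, and Basp1 was lower in both XX WT libraries and both XY -KTS KO libraries than in all 4 +KTS KO libraries.

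Wt1, which encodes the zinc-finger protein itself, stood at 273 and 273 CPM in the XX WT libraries and at 171 and 240.1 CPM in the XY WT libraries (replicates 1 and 2). The -KTS KO libraries had 289 and 267 CPM in XX and 292 and 305 CPM in XY. The +KTS KO libraries had 251 and 227 CPM in XX and 285 and 232 CPM in XY. Both XY -KTS KO libraries lay above both XY WT libraries, of which replicate 1 was the lowest of all 12. The log2 difference was 0.54 ± 0.17 (SE), with a 95% interval from 0.155 to 0.924, and Wt1 was called higher in XY -KTS KO than in XY WT (edgeR adjusted p = 0.0474). The size depended on the XY WT libraries, since the difference was 0.32 (edgeR adjusted p = 0.270) without replicate 1 and 0.81 (edgeR adjusted p = 0.0169) without replicate 2. Without XY -KTS KO replicate 1 it was 0.58 (edgeR adjusted p = 0.115). The call was near the threshold and held in 5 of 21 alternative analyses, among them 3 of the 12 that left out 1 library.

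In XX, the -KTS KO and WT libraries overlapped in Wt1, with a log2 difference of 0.03 ± 0.17 (edgeR adjusted p = 0.943). Both XX +KTS KO libraries lay below XX WT, by a difference of -0.19 ± 0.17 that was not called (edgeR adjusted p = 0.644). In XY the +KTS KO and WT libraries overlapped, with a difference of 0.33 ± 0.17 (edgeR adjusted p = 0.221). XY WT was lower than XX WT in both libraries, by a log2 difference of -0.41 ± 0.17 that was not called (edgeR adjusted p = 0.150). Its size depended on the XY WT libraries, at -0.19 without replicate 1 and -0.68 without replicate 2. The -KTS KO effect on Wt1 in XX minus that in XY was -0.51 ± 0.24 (edgeR adjusted p = 0.297), so a difference in effect between the sexes was not called.

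Basp1, the co-repressor, was measured at 140.3 and 148 CPM in XX WT and at 225 and 209 CPM in XY WT. The -KTS KO libraries gave 186 and 163 CPM in XX and 169.7 and 152 CPM in XY. The +KTS KO libraries gave 190.4 and 231 CPM in XX and 252 and 231 CPM in XY. The WT libraries of the sexes did not overlap (as for 58.6% of all genes), whereas the XX and XY -KTS KO libraries did. Basp1 was higher in XY WT than in XX WT by 0.59 ± 0.14 on the log2 scale (edgeR adjusted p = 0.0220) and was called in 16 of 21 alternatives. It was not called without XX WT replicate 1 (0.55, edgeR adjusted p = 0.136), XX WT replicate 2 (0.62, edgeR adjusted p = 0.104) or XY WT replicate 1 (0.53, edgeR adjusted p = 0.134). Over all retained cells, germ and endothelial cells included, the difference was 0.34 (edgeR adjusted p = 0.349).

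Basp1 fell in XY -KTS KO against XY WT, with a log2 difference of -0.43 ± 0.14 (95% interval -0.745 to -0.121, edgeR adjusted p = 0.0491). That call was close to the threshold and held in 6 of 21 alternatives, of which 2 left out a library. Over all retained cells the difference was -0.23 (edgeR adjusted p = 0.482). Without XY -KTS KO replicate 1 the difference was -0.51 (edgeR adjusted p = 0.0892). In the direct comparison of the mutants, Basp1 was lower in XY -KTS KO than in XY +KTS KO by -0.59 ± 0.14 (edgeR adjusted p = 0.0147), and this was called in 20 of 21 alternatives. Leaving out XY +KTS KO replicate 1 gave -0.54 (edgeR adjusted p = 0.0471), and leaving out XY -KTS KO replicate 1 gave -0.65 (edgeR adjusted p = 0.0474). The exception was the fit without XY -KTS KO replicate 2, at -0.51 (edgeR adjusted p = 0.0906).

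In XX the Basp1 libraries of both mutants lay above those of WT. The log2 difference was 0.55 ± 0.14 in XX +KTS KO (95% interval 0.236 to 0.860, edgeR adjusted p = 0.0545, DESeq2 adjusted p = 0.00374) and 0.28 ± 0.14 in XX -KTS KO (edgeR adjusted p = 0.214), and neither was called by edgeR. Basp1 in XY +KTS KO differed from XY WT by 0.15 ± 0.14 (edgeR adjusted p = 0.478). The -KTS KO effect in XX minus that in XY was 0.71 ± 0.20, with a 95% interval from 0.271 to 1.15, but it did not pass the threshold (edgeR adjusted p = 0.0871, DESeq2 adjusted p = 0.00795). It ran from 0.38 to 0.82 over 21 alternatives and was called in 1 of them. Over all retained cells the edgeR adjusted p was 0.608.

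Wtip, the LIM-domain junction protein, had XX values of 60.9 and 55.2 CPM in WT, 94.4 and 80.6 CPM in -KTS KO and 66.2 and 61.0 CPM in +KTS KO. The XY values were 72.9 and 63.8 CPM in WT, 79.2 and 77.5 CPM in -KTS KO and 60.4 and 72.5 CPM in +KTS KO. In both sexes the -KTS KO libraries lay above the WT libraries, a lack of overlap shared by 64.2% (XX) and 61.9% (XY) of all genes in either direction. Wtip was called higher in XX -KTS KO than in XX WT, with a log2 difference of 0.59 ± 0.14 (95% interval 0.282 to 0.903, edgeR adjusted p = 0.0181), in 17 of 21 alternatives as well. Without XX -KTS KO replicate 1 the difference was 0.47 (edgeR adjusted p = 0.133). Without XX WT replicate 1 or replicate 2 the adjusted p was 0.0723 or 0.143 by edgeR, and over all retained cells it was 0.0643. Against XX +KTS KO the difference was 0.46 ± 0.14 (edgeR adjusted p = 0.0445), which held in 4 of 21 alternatives. In XY the difference between -KTS KO and WT was 0.20 ± 0.14 (edgeR adjusted p = 0.342), and the effects in XX and XY differed by 0.40 ± 0.20 (edgeR adjusted p = 0.322).

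Pawr, the pro-apoptotic repressor, was the scarcest of the 7 genes in UMIs, with 381 to 1057 per library. In XX it stood at 10.1 and 12.1 CPM in WT and 8.53 and 7.16 CPM in -KTS KO, and in XY at 10.7 and 9.75 CPM in WT and 8.75 and 8.02 CPM in -KTS KO. The +KTS KO libraries had 8.995 and 11.7 CPM in XX and 12.9 and 8.85 CPM in XY. Both -KTS KO groups lay below their WT groups without overlap, a lack of overlap shared by 64.2% (XX) and 61.9% (XY) of all genes in either direction. The log2 differences of -0.50 ± 0.21 in XX (edgeR adjusted p = 0.137) and -0.29 ± 0.21 in XY (edgeR adjusted p = 0.354) were not called. The 95% intervals ran from -0.966 to -0.0348 in XX and from -0.755 to 0.175 in XY.

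Cited2, the CBP/p300 co-activator, had XX levels of 220.3 and 224 CPM in WT, 257 and 206 CPM in -KTS KO and 289.9 and 235 CPM in +KTS KO. The XY libraries had 234 and 270.3 CPM in WT, 254 and 338 CPM in -KTS KO and 388 and 236 CPM in +KTS KO. The highest value was that of XY +KTS KO replicate 1, the library with its own clusters, and the other library of that group was close to XY WT replicate 1. No comparison of Cited2 was called. Log2 differences of mutant from WT ran from 0.06 ± 0.24 (XX -KTS KO) to 0.31 ± 0.24 (XY +KTS KO), and all of the 95% intervals lay between -0.475 and 0.841.

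Wtap, the methyltransferase scaffold, ranged from 60.05 CPM in XX WT replicate 2 to 85.7 CPM in XY +KTS KO replicate 2, whose partner library had 61.6 CPM. Its largest difference from WT was 0.29 ± 0.16 in XX +KTS KO (edgeR adjusted p = 0.388), where the libraries had 83.1 and 73.7 CPM against 67.9 and 60.05 CPM. Ciao1, of the iron-sulfur assembly machinery, ranged from 22.4 CPM in XY +KTS KO replicate 1 to 35.7 CPM in XY -KTS KO replicate 1. No Ciao1 difference of mutant from WT exceeded 0.20 ± 0.19 in size (XY -KTS KO, edgeR adjusted p = 0.492), and the 95% intervals of these 4 differences lay between -0.515 and 0.626. Neither gene was called in any comparison of groups with all 12 libraries. The largest Ciao1 difference of any comparison was 0.28, between XY -KTS KO and XY +KTS KO, and without XY +KTS KO replicate 2 it was 0.60 and called (edgeR adjusted p = 0.0340).

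Counted over all 7 genes in gonadal somatic cells, 1 was called in XX -KTS KO against WT (Wtip, higher), where 16.4% of all genes tested were called. In XY -KTS KO against WT 2 were called (Wt1 higher, Basp1 lower), against 23.3% of all genes. None was called in XX +KTS KO against WT by edgeR (1 at an unadjusted p under 0.05, and 1 by DESeq2), against 5.13% of all genes. In XY +KTS KO against WT edgeR called none (0 at an unadjusted p under 0.05, and 0 by DESeq2), against 13.4%. Between the mutants, 1 gene was called in XX (Wtip, 18.7% of all genes) and 1 in XY (Basp1, 21.4%). Between the WT sexes 1 was called (Basp1, 13.9%). For the difference of an effect between the sexes, edgeR called none for -KTS KO (1 at an unadjusted p under 0.05, and 1 by DESeq2), against 3.35% of all genes, and none for +KTS KO (0 and 0), against 4.22%.

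With 7 genes, counts of 0 to 2 lie close to these shares of all genes and do not set the group apart. The median size of the 7 log2 differences was 0.16 for XX and 0.23 for XY -KTS KO, against 0.34 and 0.40 over all genes tested. In XX and XY +KTS KO it was 0.19 and 0.15, against 0.24 and 0.37. In these 4 comparisons, of which the pair in each sex shares its WT libraries, the median of the 7 was below that of all genes. The comparison was not matched for level, and scarce genes vary more by counting error. Only 5677 genes had a mean of at least 20 CPM, which all of the 7 but Pawr reached.

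**Figure D2:**
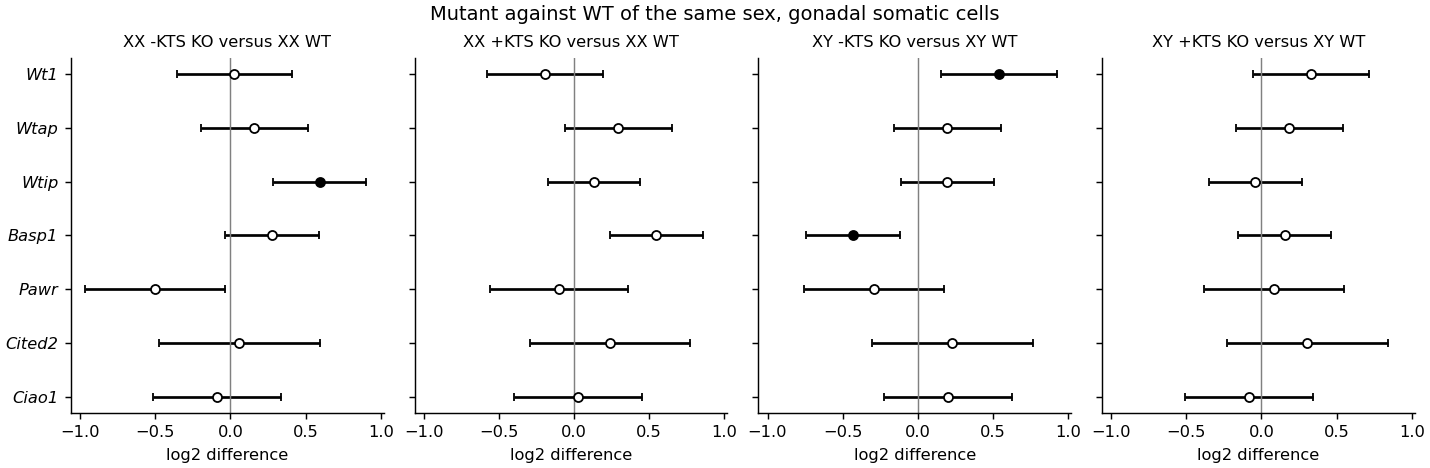
Log2 difference between each mutant and WT of the same sex in gonadal somatic cells, with 95% intervals from the edgeR fit (2 libraries per group) and filled points where the adjusted p was at most 0.05. Filled points are Wtip in XX -KTS KO and Wt1 and Basp1 in XY -KTS KO, and the other 25 intervals belong to differences that were not called.

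The 7 genes separated by cell group. Here the levels are a description, since the groups come from clustering the same cells (the 7 genes were left out of the clustering). Wt1 stood at 259 ± 37.2 CPM in gonadal somatic cells (mean ± SD, n = 12 libraries), against 4.11 ± 2.16 CPM in germ cells and 7.44 ± 6.01 CPM in endothelial cells. Those levels are 1.59% and 2.87% of the somatic level on average over libraries. In droplet libraries, RNA freed from lysed cells adds a low share of such UMIs to every cell. A comparison set of 7 other genes of gonadal somatic cells (Lhx9, Nr5a1, Emx2, Gata4, Tcf21, Pdgfra and Upk3b) was at 1.34% in germ and 2.39% in endothelial cells as a sum, with single genes from 1.096% to 2.09% and from 1.39% to 4.39%. Wt1 lay within both ranges. In most single libraries the Wt1 percentage was above that of the summed set, up to 7.22% against 3.85% (XY +KTS KO replicate 1, endothelial cells). Clusters with markers of another cell group were set apart as mixed where Gata4, Lhx9, Nr5a1 and Emx2 each reached 10 CPM (1320 cells). These genes belong to the comparison set, so its low level is set in part by this rule, which did not use Wt1 or Cited2. With likely doublets kept, Wt1 stood at 15.99 CPM in germ and 31.0 CPM in endothelial cells. In that setting all cells were clustered and named anew, so the members of each cell group changed as well. The source of the Wt1 UMIs in these cells was not tested.

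Cited2 stood at 8.20 ± 5.004 CPM in germ cells and 13.5 ± 5.91 CPM in endothelial cells, or 3.12% and 5.14% of its somatic level of 263 ± 53.0 CPM. Both percentages are above those of each of the 7 comparison genes, some of which the rule for mixed clusters holds low. With likely doublets kept and the cells clustered anew, Cited2 stood at 19.6 CPM in germ and 36.2 CPM in endothelial cells. One library, XY +KTS KO replicate 1, had the highest Cited2 in both cell groups (23.4 and 27.9 CPM), and its Wt1 there was also high (7.57 and 20.5 CPM). In the other 11 libraries Cited2 in germ cells stood at 1.94% to 4.10% of the somatic level. The other 5 genes stood at 15.4% to 243% of their somatic level in the germ and endothelial sums of single libraries, although Pawr was scarce throughout. Wtap was at 53.1 ± 6.49 CPM in germ cells and 66.8 ± 10.1 CPM in endothelial cells, against 71.1 ± 8.11 CPM in somatic cells. Wtip was at 42.04 ± 7.24 and 64.8 ± 7.44 CPM, against 70.4 ± 11.2 CPM. Ciao1 was higher outside the somatic cells, at 40.7 ± 5.32 and 37.4 ± 6.001 CPM against 30.4 ± 3.69 CPM, and its germ cell level exceeded the somatic level in every library (114% to 158%).

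Basp1 showed the widest contrast among these, with 64.7 ± 20.9 CPM in germ cells, 191 ± 37.7 CPM in somatic cells and 261 ± 38.7 CPM in endothelial cells. In germ cells its libraries ran from 32.1 to 104 CPM, with 46.3 and 32.1 CPM in XY WT and 104 and 63.7 CPM in XX WT. The germ and somatic ranges did not overlap. Pawr stood at 7.24 ± 2.72 CPM in germ cells and 7.27 ± 4.22 CPM in endothelial cells against 9.80 ± 1.76 CPM in somatic cells, and its ranges overlapped in all 3 groups.

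**Figure D3:**
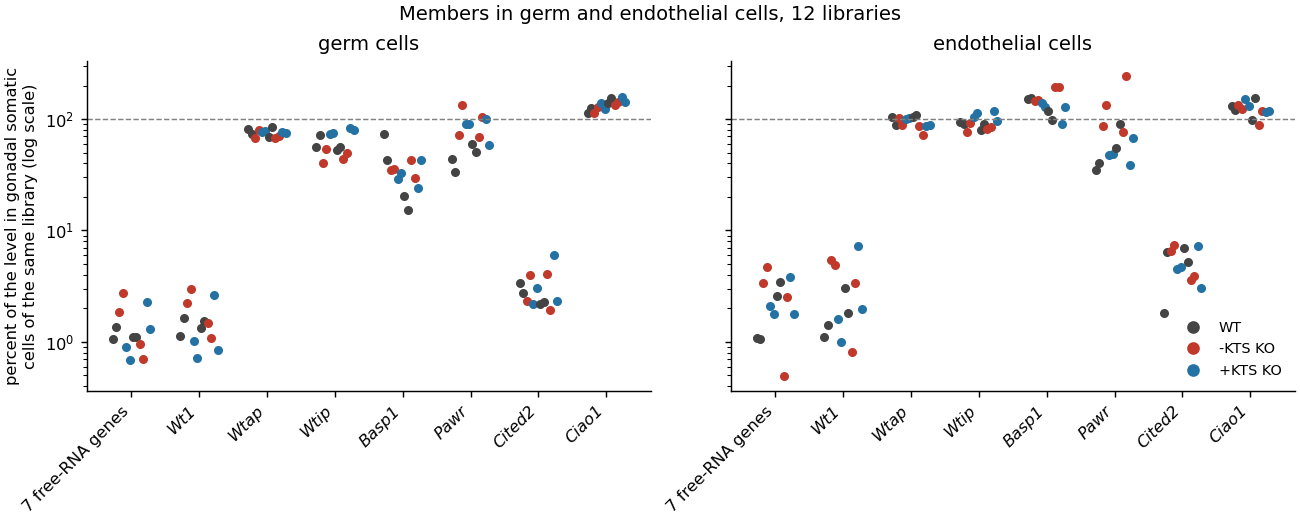
Level in germ cells (left) and endothelial cells (right) as a percent of the level in gonadal somatic cells of the same library, on a log scale, for the sum of the 7 comparison genes that stand for free RNA and for each of Wt1 and its 6 partner genes (points, 12 libraries coloured by genotype, and dashed line, equal levels). Wt1 sits with the free-RNA genes, Cited2 slightly above them, and the other 5 genes lie between 15.4% and 243% of the somatic level.

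No difference between a mutant and WT was called for the 7 genes in germ cells or endothelial cells. In germ cells edgeR called 0 of them for XX -KTS KO (1 at an unadjusted p under 0.05), against 0.0802% of 13723 genes tested, and 0 for XY -KTS KO (0 unadjusted), against 0%. It called 0 for XX +KTS KO (2 unadjusted), against 0.0874%, and 0 for XY +KTS KO (3 unadjusted), against 0%. In endothelial cells it called 0 for XX -KTS KO (2 unadjusted), against 0.572% of 10142 genes, and 0 for XY -KTS KO (0 unadjusted), against 1.22%. The endothelial counts for XX and XY +KTS KO were 0 and 0 (0 unadjusted in each), against 0.00986% and 0.0197%. DESeq2 also called 0 in each of these 8 comparisons. The depth limits them, since endothelial sums held only 5 to 45 Wt1 UMIs and 7 to 34 Pawr UMIs per library.

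Of the germ cell differences, that of Wtip in XY +KTS KO had the smallest p. Its libraries had 50.1 and 57.8 CPM against 38.2 and 36.1 CPM in XY WT (unadjusted p = 0.00538 by edgeR, edgeR adjusted p = 0.380). They did not overlap, which held for 30.5% of all genes in that comparison. In endothelial cells it was that of Wt1 in XX -KTS KO, at 15.6 and 13.2 CPM against 3.01 and 3.89 CPM (unadjusted p = 0.00818 by edgeR, edgeR adjusted p = 0.221). The 7 comparison genes summed to 3.39% and 4.74% of their somatic level in the same -KTS KO endothelial cells and to 1.09% and 1.06% in XX WT, and their part in the Wt1 value was not tested.

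Smaller cell groups were read from UMIs pooled over libraries, with exact Poisson intervals that cover counting error only. Their CPM were scaled to the plain total of those UMIs, without the TMM factor. In 193 immune cells, Cited2 was at 199.9 CPM (95% interval 184 to 217) and Basp1 at 209.7 CPM (193 to 227), while Wt1 was at 23.8 CPM, or 9.19% of its somatic level beside 8.996% for the 7 comparison genes. In 1093 erythrocytes, Cited2 reached 56.8 CPM (54.2 to 59.5), or 21.4% of its somatic level, against 2.95% for the comparison genes. Wtap and Ciao1 were also above the comparison genes there (18.0% and 26.1%). Wt1 (2.99%), Basp1 (2.94%) and Wtip (3.16%) were within the range of those genes, which was 2.28% to 3.56%. Pawr was at 5.45%, from 17 UMIs. One library stood apart, since Wt1 and Basp1 were each found in 43.75% of the 32 erythrocytes of XY +KTS KO replicate 1. Without it, a choice made after seeing the data, Wt1 was at 2.06%, Basp1 at 1.81%, Wtip at 2.55% and Pawr at 4.79%, against 1.82% to 2.797% for the comparison genes, and Cited2 was at 21.6%. In 71 mesonephric duct cells, of which 66 came from XY +KTS KO replicate 2, Pawr was at 45.8 CPM (35.1 to 58.8), or 464% of its somatic level, and Wt1 at 2.96 CPM (0.806 to 7.57).

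The share of cells with at least 1 UMI was compared after thinning every cell to 5000 UMIs, since median depth was 12826 UMIs in somatic, 30504 in germ and 15191 in endothelial cells. Wt1 was found in 68.4% ± 7.20 of somatic cells (n = 12 libraries), and in 2.21% ± 1.43 of germ and 2.11% ± 2.67 of endothelial cells. Cited2 was found in 55.6% ± 4.57, 3.53% ± 1.92 and 5.69% ± 4.13 of these cells. Basp1 was found in 52.9% ± 6.77 of somatic, 26.3% ± 6.81 of germ and 68.3% ± 5.82 of endothelial cells. Wtap was found in 29.5%, 22.1% and 27.4%, Wtip in 28.7%, 20.1% and 27.2% and Ciao1 in 14.3%, 18.7% and 16.3% of them. The Wtap shares of single libraries did not overlap between somatic (26.3% to 33.1%) and germ cells (17.9% to 24.5%). Pawr was found in 4.45%, 3.83% and 3.97%. Thinning left out 5014 of the somatic cells, and the loss was uneven, with 24.9% in XY +KTS KO replicate 1, 23.3% in XX -KTS KO replicate 2 and 3.61% to 5.95% in the other libraries.

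Within WT gonads, the somatic cells were separated into types by markers that do not include the 7 genes. Levels are again a description. Cells with Sertoli markers (Sox9, Amh, Dhh) made up 26.0% and 24.9% of gonadal somatic cells in the XY WT libraries, and cells with pre-granulosa markers (Foxl2, Fst, Irx3) made up 45.1% and 42.2% in the XX WT libraries. Interstitial-like cells made up 42.04% and 28.7% in XY WT and 11.6% and 13.0% in XX WT. Coelomic epithelium-like cells made up 16.2% and 13.0% in XX WT and 3.23% in XY WT replicate 2, the only XY WT library with at least 50 of them. Pre-supporting-like cells (Runx1, Wnt6, Gadd45g, Sprr2d and Nr0b1 as markers) made up 7.22% and 5.78% in XX WT, and their main cluster also carried the pre-granulosa marker Fst. Many somatic cells stayed unnamed. Among them was cluster 18 (1715 cells, 99.0% WT, 59.1% from XY WT replicate 2), with Sox9 and Cyp26b1 among its leading genes. It had 110 CPM of Basp1 and 487 CPM of Cited2. The Sertoli-like shares and levels therefore leave out some WT cells with Sox9.

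Wt1 was lowest in the interstitial-like cells of XY WT, at 85.7 and 141 CPM, and reached 197 and 238 CPM in those of XX WT. Sertoli-like cells had 213 and 287 CPM, pre-granulosa-like cells of XX WT 299 and 308 CPM, pre-supporting-like cells of XX WT 354 and 345 CPM, and coelomic epithelium-like cells of XX WT 259.8 and 260.3 CPM. XY WT replicate 1, which had the lowest Wt1 sum of all libraries, had the larger share of interstitial-like cells of the XY WT libraries and also the lower Wt1 level within both of its named types. The Sertoli-like cells of XY WT and the coelomic epithelium-like cells of XX WT overlapped in Wt1.

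Basp1 was lowest in pre-supporting-like cells, at 71.6 and 82.2 CPM in XX WT. Next came pre-granulosa-like cells, at 93.5 and 101 CPM in XX WT and 117 CPM in the 84 such cells of XY WT replicate 2. In the other 3 named types it lay between 183 and 256 CPM. Cited2 was highest in pre-supporting-like cells (527 and 512 CPM) and high in Sertoli-like cells (349.6 and 369 CPM). It averaged 293 and 307 CPM in pre-granulosa-like cells of XX WT, but their clusters differed, with 420 CPM in cluster 5 and 141 CPM in cluster 11. It stood at 123 and 126 CPM (XX) and 144 and 97.0 CPM (XY) in interstitial-like cells, whose mostly WT clusters 14, 17 and 22 had 142, 99.6 and 147 CPM. Coelomic epithelium-like cells had 68.0 and 88.6 CPM in XX. Pawr was low in the pre-supporting-like cells of XX WT (3.41 and 7.49 CPM) and the interstitial-like cells of XY WT (4.77 and 7.60 CPM), which overlapped, and highest in those of XX WT (15.3 and 18.5 CPM) and in Sertoli-like cells (17.0 and 14.3 CPM). Wtip was higher in coelomic epithelium-like cells (70.1 and 70.4 CPM in XX WT) than in pre-granulosa-like cells of the same libraries (54.6 and 49.96 CPM). Over all of these types and WT libraries, Wtap ran from 56.8 to 74.3 CPM, Wtip from 47.1 to 70.4 CPM and Ciao1 from 23.7 to 36.3 CPM.

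**Figure D4:**
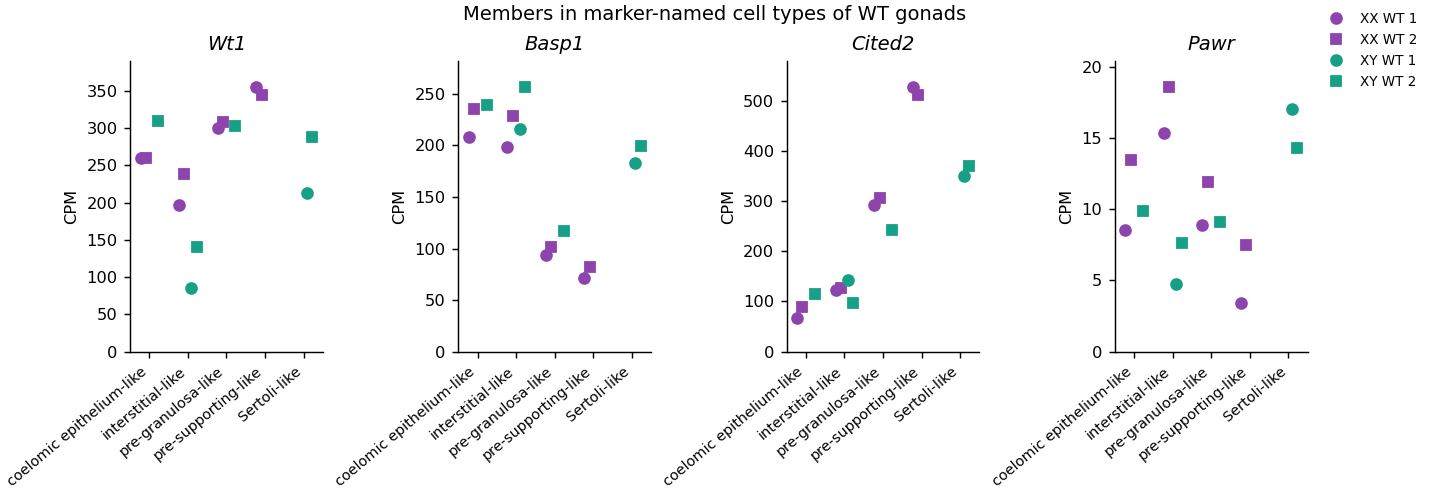
Level of Wt1, Basp1, Cited2 and Pawr, in CPM, in marker-named cell types of the WT libraries (purple, XX, and green, XY, with circles for replicate 1 and squares for replicate 2, each with at least 50 cells of the type). Basp1 was lowest and Cited2 highest in pre-supporting-like cells, and Wt1 was lowest in the interstitial-like cells of XY WT.

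All 39 somatic clusters of at least 200 cells, of every genotype, were then set side by side. From the lowest to the highest cluster, Wt1 ran from 115 to 389 CPM (3.37-fold), Basp1 from 62.9 to 442 CPM (7.03-fold), Cited2 from 80.9 to 726 CPM (8.97-fold) and Pawr from 3.03 to 35.3 CPM (11.7-fold). Ciao1 (1.80-fold), Wtap (1.98-fold) and Wtip (2.35-fold) spread less. The lowest Basp1 was in cluster 1, made up of -KTS KO cells and led by Wfdc13, Cpa1 and Wfdc10, which also had a Cited2 level of 719 CPM. The highest Cited2 and Wt1 were in cluster 20, whose cells came almost all (99.2%) from XY +KTS KO replicate 1. At least 3 markers each of pre-granulosa, pre-supporting and Sertoli cells were raised in it, and it was named by the pre-granulosa ones. Cluster 45, an interstitial-like cluster of mostly -KTS KO cells led by Sfrp2, Nefm and Twist1, had the highest Basp1 and Pawr.

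Across these clusters the log2 levels of Basp1 and Cited2 had a Pearson r of -0.63, those of Basp1 and Pawr 0.67, and those of Wt1 and Cited2 0.47. Wt1 and Basp1 had an r of -0.48, Wtip and Cited2 -0.54, and Wt1 with Wtap, Wtip and Ciao1 between -0.10 and -0.02. The clusters share libraries and differ in depth and size, so these values describe the clusters and carry no test. By genotype, the median Wtip level was 84.6 CPM over the 10 clusters made mostly of -KTS KO cells, against 60.8 CPM over 12 WT and 60.8 CPM over 17 +KTS KO clusters.

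**Figure D5:**
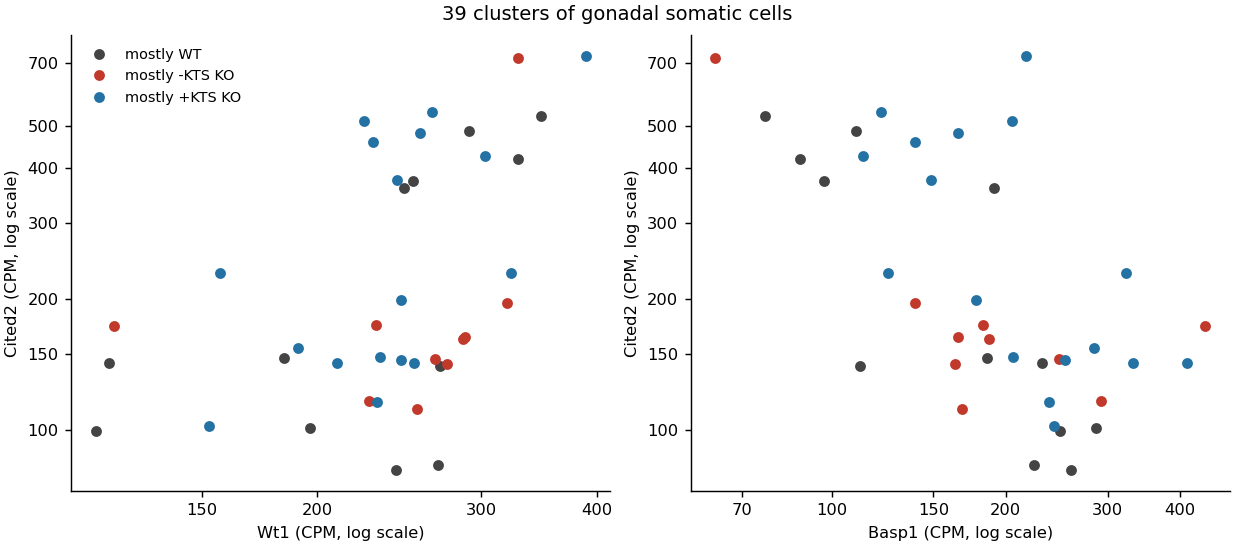
Cited2 against Wt1 (left) and against Basp1 (right) in 39 clusters of gonadal somatic cells, in CPM on log axes, coloured by the genotype that gave most of the cells. The clusters with most Cited2 (726 CPM in cluster 20 and 719 CPM in cluster 1) lie at 389 and 329 CPM of Wt1, and the cluster with least Wt1 (115 CPM) had 99.6 CPM of Cited2.

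The genes whose sums followed Wt1 most closely over the 12 libraries of gonadal somatic cells were Acadsb (r = 0.95), Zhx1 (0.91), Wt1os (0.91), Cachd1 (0.91) and Ogt (0.91), among 5677 genes with a mean of at least 20 CPM. Wt1os, the antisense transcript whose start is separated from that of Wt1 by 18 bases, had its lowest level in XY WT replicate 1 (41.5 CPM) and its highest in XY +KTS KO replicate 1 (98.4 CPM). The other genes of the group ranked far lower, with an r of 0.35 for Cited2, 0.15 for Wtip, -0.03 for Wtap, -0.17 for Ciao1 and -0.54 for Basp1. Pawr was below the level used.

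Genes that work with each partner were then counted from lists of 61 genes in all, of which 60 were tested in gonadal somatic cells. Each count is to be read against the share of all genes called, which was 16.4% for XX -KTS KO, 23.3% for XY -KTS KO, 5.13% for XX +KTS KO and 13.4% for XY +KTS KO. Of the 7 m6A writer genes that act with Wtap (Mettl3, Mettl14, Virma, Zc3h13, Cbll1, Rbm15 and Rbm15b), edgeR and DESeq2 called none in any mutant against WT, and 1 had an unadjusted p under 0.05 by edgeR (in XX +KTS KO). Their median log2 difference lay between 0.06 and 0.19, against -0.00 to 0.05 over all genes. Of the 4 genes of the iron-sulfur targeting complex (Ciao2a, Ciao2b, Mms19 and Ciao3), none was called by edgeR or DESeq2 and none had an unadjusted p under 0.05. Their medians lay between -0.08 and 0.10.

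Among the LIM proteins and LATS kinases around Wtip (Ajuba, Limd1, Lats1 and Lats2), edgeR called 1 of 4, in XX -KTS KO (against 16.4% of all genes), and none in XY -KTS KO, where 1 had an unadjusted p under 0.05 and DESeq2 called 1. Ajuba, a LIM protein of the same family as Wtip, had 7.45 and 7.45 CPM in XX WT and 11.1 and 12.6 CPM in XX -KTS KO and rose by 0.67 ± 0.18 (edgeR adjusted p = 0.0305). The list's median in that comparison was 0.31, against 0.01 over all genes. Among 5 relatives and co-repressor parts of BASP1, 2 rose in the XX and 1 in the XY -KTS KO, where 16.4% and 23.3% of all genes were called in either direction. Gap43, which encodes a growth-cone protein that binds membrane lipids as BASP1 does, rose in both sexes. It went from 0.271 and 0.436 CPM to 2.36 and 0.978 CPM in XX. In XY it went from 0.219 and 0.219 CPM to 2.75 and 1.08 CPM. The log2 differences of Gap43 were 2.23 ± 0.64 and 3.11 ± 0.68 (edgeR adjusted p = 0.0401 and 0.00933). Its direction was the opposite when all retained cells were summed, and without XX -KTS KO replicate 1 the XX difference was 1.45 (edgeR adjusted p = 0.258). Marcks, which binds the same membrane lipids, rose in XX -KTS KO by 0.52 ± 0.15 (edgeR adjusted p = 0.0429), from 207 and 251 to 342 and 317 CPM. Neither list had a member called in +KTS KO against WT by edgeR or DESeq2, with 2 genes in XX and 1 in XY at an unadjusted p under 0.05.

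Of 6 genes around Cited2 (its relatives Cited1 and Cited4, Crebbp, Ep300, Tfap2a and Tfap2c), 2 fell in each XY mutant (against 23.3% and 13.4% of all genes called in -KTS KO and +KTS KO). Cited1, a co-activator of the same family, had XY levels of 19.7 and 6.76 CPM in WT, 1.73 and 1.39 CPM in -KTS KO and 0.622 and 0.489 CPM in +KTS KO, and was at most 1.34 CPM in all 6 XX libraries. Cited4 had 30.8 and 44.8 CPM in XY WT, against 2.53 and 1.91 CPM in -KTS KO and 2.98 and 1.27 CPM in +KTS KO of that sex, and was at most 4.26 CPM in the XX libraries. For Cited1 the log2 differences were -3.08 ± 0.47 and -4.57 ± 0.51 (edgeR adjusted p = 0.00157 and 0.000978). For Cited4 they were -4.09 ± 0.47 and -4.15 ± 0.48 (edgeR adjusted p = 0.000394 and 0.00111). The acetyltransferases Crebbp and Ep300 were not called in any of the 4 comparisons. In XX, edgeR called none of the 6 in either mutant (0 at an unadjusted p under 0.05 in -KTS KO and 1 in +KTS KO, and 0 and 1 by DESeq2). Of the 4 partners of Pawr, Prkcz, an atypical protein kinase C, rose in XY +KTS KO by 0.73 ± 0.19 (6.40 and 5.78 to 8.84 and 11.3 CPM, edgeR adjusted p = 0.0323, with 13.4% of all genes called), although its difference was -0.26 over all retained cells. The call held in 6 of the 12 fits that each left out 1 library. In the other 3 comparisons edgeR called none of the 4 (0, 1 and 0 at an unadjusted p under 0.05 for XX -KTS KO, XY -KTS KO and XX +KTS KO, and 0 by DESeq2).

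Of 10 other tested genes whose proteins have been reported to bind WT1, 2 fell in XX and 3 in XY -KTS KO, 1 rose in XX +KTS KO, and edgeR called 0 for XY +KTS KO (3 at an unadjusted p under 0.05, and 2 by DESeq2). Of all genes, 16.4%, 23.3%, 5.13% and 13.4% were called in these comparisons, so the counts in -KTS KO lie near the share over all genes. The nuclear receptors Nr5a1 and Nr0b1 account for all of these but Hspa4, which fell by 0.44 ± 0.13 on the log2 scale in XY -KTS KO (edgeR adjusted p = 0.0371). That call held in 3 of the 12 fits that each left out 1 library, and without XY WT replicate 2 the difference was -0.29 (edgeR adjusted p = 0.233). Nr5a1, a regulator of steroidogenic genes, had XX levels of 35.2 and 34.4 CPM in WT, 15.6 and 21.8 CPM in -KTS KO and 66.6 and 72.2 CPM in +KTS KO. Its XY levels were 43.5 and 59.7 CPM in WT, 12.3 and 18.1 CPM in -KTS KO and 77.1 and 64.5 CPM in +KTS KO. It fell in -KTS KO of both sexes, with differences of -0.90 ± 0.23 in XX and -1.76 ± 0.23 in XY, and rose by 1.00 ± 0.23 in XX +KTS KO (edgeR adjusted p = 0.0246, 0.000726 and 0.0349). The fall in XX was no longer called without either XX WT library or without XX -KTS KO replicate 1 (edgeR adjusted p = 0.109, 0.08702 and 0.1695). The rise in XX +KTS KO was no longer called when any XX WT or XX +KTS KO library was left out. The fall in XY stayed called without each library in turn. Nr0b1, which encodes a repressor of NR5A1, fell in -KTS KO, with differences of -3.29 ± 0.33 in XX and -1.75 ± 0.31 in XY (edgeR adjusted p = 0.000351 and 0.00338). Its level went from 69.6 and 62.1 CPM to 8.57 and 4.85 CPM in XX. These are sums over all gonadal somatic cells, and pre-supporting cells, in which the study tested Nr0b1, were not tested apart.

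Of 22 tested genes reported as targets of WT1, 9 were called for XX -KTS KO (3 higher, 6 lower), 10 for XY -KTS KO (3 and 7), 2 for XX +KTS KO (2 and 0) and 9 for XY +KTS KO (3 and 6), against 16.4%, 23.3%, 5.13% and 13.4% of all genes. The median sizes of their log2 differences were 0.90, 1.15, 0.32 and 1.01, against 0.34, 0.40, 0.24 and 0.37 over all genes. The list holds genes that the study itself discusses from these samples (Igf2, Pdgfa and Tcf21 among them), so it is not independent evidence. The study tested pre-supporting cells, whereas these values are sums over all gonadal somatic cells, and the direction within a single cell type was not tested here. Nr5a1 and Nr0b1 are counted both here and among the reported binding proteins, and Nr5a1, Nr0b1 and Amh are also among the markers of gonadal cell types used here.

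The called targets took several courses. Gas1, a growth-arrest gene, rose in -KTS KO of both sexes, from 95.4 and 119 CPM to 452 and 326 CPM in XX (1.86 ± 0.23, edgeR adjusted p = 0.000856) and from 84.0 and 90.6 CPM to 365 and 430.1 CPM in XY (2.19 ± 0.23, edgeR adjusted p = 0.000248). Vdr, the vitamin D receptor, and Amhr2, the receptor of AMH, fell in -KTS KO of both sexes. For Amhr2 the differences were -1.50 ± 0.15 and -0.71 ± 0.15 (edgeR adjusted p = 0.000359 and 0.00792). Podxl, a podocyte sialomucin, had a difference of -1.77 ± 0.28 in XX -KTS KO and rose by 1.68 ± 0.28 in XY +KTS KO (edgeR adjusted p = 0.00317 and 0.00568), with 119 and 126 CPM in XX WT against 28.4 and 56.5 CPM in XY WT. Wnt4, of the ovarian pathway, rose in both XY mutants (2.35 ± 0.41 and 2.33 ± 0.41, edgeR adjusted p = 0.00303 and 0.00656). Its XY WT libraries had 35.1 and 70.9 CPM and all 8 mutant libraries at least 207 CPM.

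Amh, the Sertoli hormone, had XY levels of 203 and 68.5 CPM in WT, 0.186 and 0.186 CPM in -KTS KO and 26.9 and 12.6 CPM in +KTS KO. In XX it had 0.271 and 0.367 CPM in WT and 20.3 and 7.44 CPM in +KTS KO. It fell in both XY mutants (-9.50 ± 0.84 and -2.78 ± 0.58, edgeR adjusted p = 8.49e-05 and 0.0137) and rose in XX +KTS KO (5.42 ± 0.72, edgeR adjusted p = 0.00427). Without XY WT replicate 1 the difference in XY +KTS KO was -1.79 (edgeR adjusted p = 0.0936). Igf2, a growth factor, rose in XY +KTS KO from 118 and 145 CPM to 419 and 531 CPM (1.85 ± 0.22, edgeR adjusted p = 0.00121). Pdgfa, a mesenchymal growth factor, rose in XX -KTS KO (1.25, edgeR adjusted p = 0.0128), from 44.7 and 37.7 CPM to 97.9 and 97.7 CPM, and fell in XY +KTS KO (-1.60, edgeR adjusted p = 0.00585), from 116 and 109 CPM to 23.8 and 50.4 CPM. The rise was no longer called without any one of the 4 XX WT and XX -KTS KO libraries (1.121 to 1.37, edgeR adjusted p = 0.0584 to 0.103), and the fall stayed called without each library in turn. Spry1, an inhibitor of growth factor signalling, rose in XX -KTS KO and fell in XY +KTS KO (1.31 and -1.22, edgeR adjusted p = 0.0141 and 0.0234). The rise was lost without either XX WT library or XX -KTS KO replicate 1 (0.84 without the last), and the fall without XY WT replicate 1 (-0.81) or XY +KTS KO replicate 2 (-1.02). Areg, an EGF family ligand, rose in XY -KTS KO (2.25, edgeR adjusted p = 0.00729), and the call was lost without XY WT replicate 1 (2.098, edgeR adjusted p = 0.0578). Bcl2, an anti-apoptotic gene, fell in both XY mutants, and Itga4, an integrin subunit, and Vdr fell in the -KTS KO of each sex and in XY +KTS KO, with differences from -0.72 for Bcl2 in XY +KTS KO to -3.88 for Vdr in XY -KTS KO. In XY +KTS KO the calls of Bcl2 and Itga4 were lost without either XY WT library or XY +KTS KO replicate 2 (-0.48 for Bcl2 without the last). The Vdr call there held in 2 of the 12 fits that each left out 1 library, with a difference of -1.0995 in all libraries and -0.68 without XY WT replicate 2.

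Of the list genes called in XY +KTS KO against WT, all 12 stayed called without XY +KTS KO replicate 1. Without XY +KTS KO replicate 2 or XY WT replicate 1, 7 of 12 did, and Amh was among those lost without the latter. Without XY WT replicate 2, 8 of 12 did. In XY -KTS KO, 11 of 14 stayed called without replicate 1 of that group or without XY WT replicate 2, and Amhr2, Gap43 and Hspa4 did not in either case. Areg and Gap43 were lost without XY WT replicate 1, and Hspa4 without XY -KTS KO replicate 2. In XX -KTS KO, 5 of 12 stayed called when replicate 1 or either XX WT library was left out, and those lost in each case were Ajuba, Gap43, Itga4, Marcks, Nr5a1, Pdgfa and Spry1. Without XX -KTS KO replicate 2, 8 of 12 stayed called, and Ajuba, Itga4, Marcks and Pdgfa did not.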

How the data were processed

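Single-cell suspensions of fetal mouse gonads were captured with a 10x Genomics 3′ kit and sequenced by the authors. The deposited files hold UMI counts per gene and cell, made by the authors with Cell Ranger 6.0 against mm10 per the submitters' notes. Here, barcodes under 1000 genes or over 10% mitochondrial UMIs were dropped, which kept 83513 of 103730. The cells with the highest Scrublet scores, 7447 in all, were then removed as likely doublets, at a fixed share of 0.8% per 1000 barcodes. This took 287 to 1038 cells per library, whereas Scrublet's own threshold called 0 to 786. Cells were clustered without the 7 genes (3000 variable genes, 50 components, 20 neighbours, Leiden resolution 2.0, scanpy 1.11.5 and igraph 0.11.9) and named from at least 3 raised markers. The resolution and the rule for mixed clusters were set after the clusters were seen. The 7 genes, lists and tests were chosen with earlier results of these data known, and list genes were named where called in at least 1 comparison of mutant with WT.

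UMIs were summed per library and cell group and tested with edgeR 4.0.16 in R 4.3.3 (quasi-likelihood, TMM scaling, low counts filtered, all 12 libraries in 1 fit, p-values Benjamini-Hochberg adjusted over all genes). The steps were tested on simulated data. Alternatives were DESeq2 1.42.0, other scalings, no filter, a replicate block, other choices of cells and leaving out each library. The methods call the replicates independent. With 2 libraries per group, the p-values rest on a spread estimated over all 12 libraries together and shared in part across genes. That spread mixes pools of embryos (-KTS KO) with single embryos (the other groups). The ranking of genes by likeness to Wt1 used genes with a mean of at least 20 CPM, and the correlations across clusters had no such minimum. The comparison set for free RNA leaves out 1 gene, which is not reported here.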

Additional observations from a re-analysis of the deposited data

Results flagged for a closer look

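Among the genes around Wt1 and its partners, 120 tests of whether a mutant's effect differed between XX and XY were run in gonadal somatic cells (edgeR, adjusted over all genes). Of these, 8 passed the threshold. Of all genes, 3.35% (-KTS KO) and 4.22% (+KTS KO) passed it. The tests of both mutants share their WT libraries. The 8 are given as the log2 effect in XX minus that in XY. For Amh the value was 9.25 ± 1.29 (SE) for -KTS KO and 8.20 ± 0.93 for +KTS KO (edgeR adjusted p = 0.00865 and 0.00261), with Amh near 0 in XX WT. For Cited1 the values were 3.46 ± 0.66 and 4.25 ± 0.68 (edgeR adjusted p = 0.0241 and 0.0109). For Cited4 the -KTS KO value was 3.55 ± 0.62 (edgeR adjusted p = 0.0192). Cited1 and Cited4 were low in every XX library, as given above. For Wnt4 the values were -2.73 ± 0.56 and -2.85 ± 0.56 (edgeR adjusted p = 0.0311 and 0.0239), and for Pdgfa the +KTS KO value was 1.71 ± 0.38 (edgeR adjusted p = 0.0374). Each of the 12 libraries was then left out in turn. The Amh calls held in 11 (-KTS KO) and 12 (+KTS KO) of these fits, those of Cited1 in 6 and 11, that of Cited4 in 7, those of Wnt4 in 6 and 8 and that of Pdgfa in 2. Without XY -KTS KO replicate 1, the -KTS KO values of Cited1 (3.62, edgeR adjusted p = 0.0831), Cited4 (3.76, edgeR adjusted p = 0.0693) and Wnt4 (-2.51, edgeR adjusted p = 0.110) and the +KTS KO value of Pdgfa (1.72, edgeR adjusted p = 0.0667) were no longer called. Without XY +KTS KO replicate 1 all 8 stayed called, with Pdgfa at 1.26 (edgeR adjusted p = 0.00941). Of the 7 genes themselves, edgeR called none in these tests, while DESeq2 called Basp1 for -KTS KO.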

How the results depend on the processing

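Single differences of the 7 genes kept their direction and side of the threshold in 435 recomputed values, lost the call in 58, gained it in 8 and reversed in 3. Most of these differences were not called with all libraries and so could not lose a call. Those that were called held in 4 to 20 of 21 alternatives each, as given above. The reversed values were small ones of Wt1, at -0.0277 for XX -KTS KO against WT with no scaling beyond the total (-0.0316 without XX -KTS KO replicate 1 and 0.0899 without replicate 2, the range over libraries left out), and 0.0153 for XX +KTS KO against WT over all retained cells. For list genes, only differences called with all libraries were counted. Of these values 730 kept direction and call, 107 lost the call and 3 reversed over all retained cells. The reversed ones were Gap43 (-0.74 in XX and -0.44 in XY -KTS KO) and Prkcz (-0.26 in XY +KTS KO). The cause was not tested.

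The number of the 7 genes called changed as follows. For XX -KTS KO against WT it was 0 over all retained cells. For XY -KTS KO against WT it was 1 with DESeq2 size factors, all retained cells, doublets kept or cells called by marker UMIs, and 0 with no scaling, no filter, a replicate block or without clusters of shallow cells (an alternative chosen after seeing the data). For XX +KTS KO against WT it was 1 with DESeq2, doublets kept or marker UMIs. For XX -KTS KO against +KTS KO it was 0 with DESeq2 size factors, no filter, a replicate block, all retained cells, doublets kept, marker UMIs or without shallow clusters. Between the WT sexes it was 0 with no scaling or all retained cells, and for the -KTS KO effect between sexes it was 1 with DESeq2. With no filter on low counts it was 1 and 2 in germ cells (XX and XY +KTS KO) and 1 in endothelial cells (XX -KTS KO). Leaving out 1 library gave 0 to 1 for XX -KTS KO and XX +KTS KO against WT, for XX -KTS KO against +KTS KO and for XY +KTS KO in germ cells, and 0 to 2 for XY -KTS KO against WT, XY -KTS KO against +KTS KO and XY WT against XX WT.

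Correlations of same-numbered deviations over 15 pairs of groups ran from -0.187 to 0.158 in somatic cells. They ran from -0.173 to 0.273 in germ and from -0.188 to 0.211 in endothelial cells. Replicate numbers were therefore not treated as pairs. With the replicate block, Wt1 in XY -KTS KO had a difference of 0.54 (edgeR adjusted p = 0.0654), and the adjusted p of Basp1 there was 0.0646.

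The number of all genes called ran, without 1 library and then over the other alternatives, from 1173 to 3638 and 1493 to 3556 for XX -KTS KO against WT, from 2095 to 5041 and 2406 to 4687 for XY -KTS KO, from 162 to 1337 and 463 to 1516 for XX +KTS KO, and from 762 to 3019 and 1729 to 3350 for XY +KTS KO. For the mutants against each other it ran from 1641 to 3999 and 2355 to 3812 in XX and from 2010 to 4761 and 2541 to 4391 in XY, and for the WT sexes from 845 to 3258 and 1227 to 3089. For the difference of effects it ran from 92 to 1007 and 169 to 1361 (-KTS KO) and from 165 to 1449 and 265 to 1556 (+KTS KO). In germ cells, all ran from 0 to 47 and from 0 to 427, and in endothelial cells from 0 to 225 and from 0 to 395.

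With doublets kept and the cells clustered anew, mean levels were 15.99 CPM (Wt1) and 19.6 CPM (Cited2) in germ cells. In endothelial cells they were 31.0 and 36.2 CPM. Without thinning, the share of somatic cells with a UMI was 87.1% for Wt1, 58.7% for Wtap, 56.5% for Wtip, 74.8% for Basp1, 11.2% for Pawr, 75.8% for Cited2 and 34.1% for Ciao1. In germ cells the shares in that order were 10.0487%, 75.3%, 68.2%, 70.3%, 21.1%, 20.3% and 69.7%, and in endothelial cells 7.66%, 60.4%, 58.7%, 85.5%, 10.8%, 17.7% and 46.4%. With 2 libraries per group, and few UMIs of Wt1 and Pawr outside somatic cells, small differences could not be detected.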
